A study of Mus musculus with 4 samples.

Results

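Neutrophil-lineage cells carrying secondary granule transcripts were singled out from single-cell libraries of mouse bone marrow progenitors. A cell was kept when it had at least 500 UMIs (unique molecular identifiers, each standing for 1 captured transcript) and at most 20% of them from mitochondrially encoded genes. Members were the kept cells in which S100a8, S100a9, Ngp, Camp and Ltf together held at least 1% of the UMIs, a sum called the selection share below. They numbered 711 of 15421 kept cells (18822 deposited). WT imatinib held 242 of 4189 kept cells (5.78%, exact binomial 95% interval 5.09 to 6.53) and CML imatinib 469 of 5167 (9.08%, 8.31 to 9.89). The WT untreated library held 0 of 3033 and the CML untreated library 0 of 3032, counts that allow a share of up to 0.0989% each. The selection share and every gene measured in the same cells are therefore given as descriptions.

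The study profiled bone marrow of C57BL/6 mice by inDrop, a droplet method with barcoded beads, after a sort for cells lacking lineage markers and carrying Sca1 and cKit. Wild-type (WT) mice and mice with chronic myeloid leukaemia (CML), the disease of the BCR-ABL kinase, were either untreated or given imatinib, an inhibitor of the ABL and KIT kinases. Each combination was sequenced as 1 library. Mice received imatinib by gavage every other day at 400 mg/kg, over 30 days by one label and 4 weeks by another. How CML was produced in the mice, how many mice each library pooled and their ages are not given in the sources used here. All 4 groups share strain, tissue and sort. Sex-linked transcripts set the CML untreated library apart from the others, with values given at the end. Because each group is a single library, differences cannot be set against replicate spread and none was tested. Intervals reflect counting error and nothing else.

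Kept cells had a median of 1486 UMIs in the WT imatinib and 1192 in the CML imatinib library, against 3636 and 5160 in the untreated ones. The lowest UMI total of any deposited cell was 1001 (WT) and 1006 (CML) in the untreated libraries and 200 in both imatinib libraries, so treatment and depth cannot be told apart. The imatinib libraries stood apart in makeup as well. Non-member cells with at least 1% of UMIs from the primary granule enzymes Mpo, Elane, Prtn3 and Ctsg were set against all kept cells. In the imatinib libraries such cells made up 65.9% (WT) and 63.3% (CML) of kept cells, members included. The untreated libraries had 9.20% (WT) and 7.39% (CML). Cell names recurred between libraries, 340 of them between the 2 imatinib libraries (6.10% and 5.01% of their names) and 1135 between the 2 WT libraries (39.6% and 20.4%), and cells were taken by column and not by name.

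Neutrophils fill their granules in waves. Promyelocytes make the primary granule enzymes, myelocytes and metamyelocytes the secondary granule proteins, and later cells the gelatinase of tertiary granules and the receptors used in blood and tissue, while division stops. The transcription factor C/EBP epsilon is needed for the secondary granule genes. S100a8 and S100a9 encode the subunits of the calcium-binding dimer calprotectin, Ngp a cathelin-family granule protein, Camp the cathelicidin precursor, Ltf lactoferrin, which binds iron, and Lcn2 lipocalin 2, which binds iron carriers of bacteria.

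The upstream stretches of the 5 selection genes and Lcn2 are shown because their transcripts define these cells. A C/EBP motif can be read in 4 of the 6. Each run is the 250 bases before the RefSeq start site, 5′ to 3′ on the gene's strand, on build GRCm38.p6. Capitals mark matches to TTGCNNAA, searched on both strands, so that a match on the other strand is printed as its reverse complement.
Ngp (chr9:110419558-110419807, plus strand): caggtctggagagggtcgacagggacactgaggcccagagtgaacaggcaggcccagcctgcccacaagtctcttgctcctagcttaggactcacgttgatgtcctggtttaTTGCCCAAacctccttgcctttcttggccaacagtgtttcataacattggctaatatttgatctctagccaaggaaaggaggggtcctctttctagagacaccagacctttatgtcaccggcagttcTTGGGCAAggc
Ltf (chr9:111019042-111019291, plus strand): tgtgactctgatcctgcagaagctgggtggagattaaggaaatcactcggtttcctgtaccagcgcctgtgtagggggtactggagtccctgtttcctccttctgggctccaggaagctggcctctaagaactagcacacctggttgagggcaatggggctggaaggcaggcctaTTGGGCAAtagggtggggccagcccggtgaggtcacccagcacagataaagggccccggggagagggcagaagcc
S100a9 (chr3:90695722-90695971, minus strand): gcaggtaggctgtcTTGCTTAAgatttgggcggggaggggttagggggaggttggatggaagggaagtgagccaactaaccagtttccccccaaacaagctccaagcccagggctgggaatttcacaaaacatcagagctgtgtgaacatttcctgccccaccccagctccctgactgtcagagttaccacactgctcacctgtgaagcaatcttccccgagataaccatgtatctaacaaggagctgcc
Camp (chr9:109849457-109849706, minus strand): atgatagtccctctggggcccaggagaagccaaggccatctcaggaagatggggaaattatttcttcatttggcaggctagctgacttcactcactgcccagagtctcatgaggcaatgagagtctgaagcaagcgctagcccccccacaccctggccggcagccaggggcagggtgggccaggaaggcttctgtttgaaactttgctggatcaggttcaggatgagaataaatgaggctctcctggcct
S100a8 (chr3:90668821-90669070, plus strand): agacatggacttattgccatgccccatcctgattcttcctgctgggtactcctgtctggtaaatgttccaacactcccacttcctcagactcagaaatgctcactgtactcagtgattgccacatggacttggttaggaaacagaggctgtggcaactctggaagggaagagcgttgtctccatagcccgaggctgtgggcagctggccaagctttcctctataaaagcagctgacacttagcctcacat
Lcn2 (chr2:32387740-32387989, minus strand): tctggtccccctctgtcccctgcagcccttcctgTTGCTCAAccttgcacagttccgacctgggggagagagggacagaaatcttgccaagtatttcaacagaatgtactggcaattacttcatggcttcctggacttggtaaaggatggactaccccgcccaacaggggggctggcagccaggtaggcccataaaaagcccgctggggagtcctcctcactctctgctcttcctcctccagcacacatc
The Ngp stretch held the motif at 2 places, with first bases 138 and 11 bases before the start, the Ltf stretch at 1, 75 bases before it, the S100a9 stretch at 236 and the Lcn2 stretch at 216 bases before it. The Camp and S100a8 stretches held 0 matches. In windows running from 250 bases before to 50 after the start, 3 of the 5 selection genes matched, as did 3 of 8 other secondary granule genes with a RefSeq entry, 0 of 5 primary granule, 3 of 5 early neutrophil precursor, 3 of 15 tertiary granule and late neutrophil and 0 of 3 NADPH oxidase genes. Of all 32817 such windows 10.8% matched. The PU.1 motif GAGGAA, which shares no core with it, was in 5 of 5 primary granule, 6 of 8 other secondary granule, 3 of 5 early precursor, 6 of 15 tertiary granule, 1 of 3 NADPH oxidase and 2 of 5 selection gene windows, and in 28.3% of all windows. A match is a description of these letters and not of binding.

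The levels of the 5 selection genes in members follow from the selection and are given as a description. Ltf was at 2825 CPM (counts per 1e+06 UMIs) in the WT and 4607 in the CML members, Ngp at 8630 and 11214, Camp at 9590 and 11550, S100a8 at 29970 and 33107, and S100a9 at 31314 and 33520. Lcn2, the marker of the label that the selection did not use, was at 6510 and 9490 CPM, against 131 and 160 in the other kept cells of the same libraries. Over all kept cells the untreated libraries held S100a8 at 12 CPM (WT) and 10.85 (CML), and Ltf at 0.380 and 0.423. Their highest selection shares in a cell were 0.296% in WT and 0.626% in CML, from cells of 17562 and 22997 UMIs in which Ngp, Camp and Ltf were all at 0 UMIs and S100a8 had 41 and 112.

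Outside the members the selection caps these transcripts. All other kept cells together gave the 5 selection genes 0.0767% of their UMIs in WT imatinib and 0.102% in CML imatinib. Cells with at least 1% of UMIs from mast cell and basophil proteases, a type not known for these genes, gave 0.0148% (100 cells) and 0.0270% (124 cells). With each cell thinned to 500 UMIs, Ltf was seen in 33.5% of WT and 42% of CML members, and in 0.203% and 1.11% of the other kept cells. Unthinned the shares were 35.1% and 45.6% of members, against 0.481% and 2.83%, with median depths of 1358 and 1082 UMIs in members and 1491 and 1205 in the others. S100a8 and S100a9 were seen more widely: unthinned, S100a8 was in 25.7% (WT) and 32.6% (CML) and S100a9 in 11.8% and 21.8% of the other kept cells. Around the threshold the cells formed a continuum. The 21 WT and 75 CML members with a selection share of 1.0 to under 1.2% gave the 4 primary granule enzymes 3.18% and 2.42% of their UMIs, and the 36 and 130 cells from 0.8 to under 1.0%, just outside, 3.39% and 2.28%.

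Beside the other kept cells of their own library, the members had higher levels of secondary granule and NADPH oxidase genes and, for most genes compared, of tertiary granule genes. Of the 3186 genes compared in WT (those reaching 50 CPM and 50 UMIs on the higher side), 173 (5.43%) were higher by 2-fold or more in members and 367 (11.5%) lower, together 16.9%. In CML, 306 (8.03%) and 546 (14.3%) of 3812 were, together 22.4%, and 151 and 164 genes were so in both libraries. This contrast is the one the cells were selected on, so the counts are read no further. All 9 compared genes of the other secondary granule list were higher in both libraries, among them Chil3, a chitinase-like lectin (2833 against 47.8 CPM in WT, 3591 against 66.1 in CML), and Lyz2, lysozyme (1834 against 95.4, 2178 against 74.2). Of the tertiary granule and late neutrophil list, 7 of 8 in WT and 10 of 10 in CML were higher. The largest differences beyond the selection genes included Mmp9, the gelatinase (694 against 4.24 CPM in WT, 710 against 6.33 in CML), Retnlg, a resistin-like protein of late neutrophils (3147 against 21.3, 2940 against 31.9), Mmp8, neutrophil collagenase (960 against 10.9, 962 against 13.2) and Cd177, a neutrophil surface protein (389 against 2.57, 453 against 5.2). Set against the non-member cells rich in primary granule enzymes alone, 173 of 3107 genes (5.57%) were higher and 329 (10.6%) lower in WT, together 16.2%, and 255 (7.11%) and 286 (7.97%) of 3587 in CML, together 15.1%. In that comparison 1 primary granule gene was 2-fold lower in WT members, Ctsg (1778 against 3997 CPM), and none was in CML.

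The other lists were set against all other kept cells of the library. For the NADPH oxidase, which makes superoxide, 5 of 5 compared genes in WT and 6 of 6 in CML were at least 2-fold higher, led by its catalytic subunit Cybb (1390 against 156 CPM, 1533 against 131). Of the neutrophil receptor and adhesion list, 5 of 11 compared genes in WT and 8 of 14 in CML were higher, and the integrin chain Itgam stood at 498 against 61.8 CPM in WT and 425 against 62.7 in CML. Cebpe, encoding C/EBP epsilon, was at 208 against 54.2 CPM in WT and 195.5 against 46.7 in CML. Against all other kept cells none of the 6 primary granule genes was 2-fold apart, with Elane, neutrophil elastase, at 10587 against 9393 CPM in WT and 8817 against 6603 in CML. Among genes lower in members were Cpa3, mast cell carboxypeptidase (27.9 against 211 CPM, 47.8 against 684), and Gata2, a transcription factor of stem and mast cells (8.59 against 97.8, 19.7 against 116).

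Genes of the sort were present and stem cell markers were low. Kit, encoding cKit, was at 195.5 CPM in WT and 124 in CML members, against 175 and 144.5 in the other kept cells. Most Kit UMIs of members, 66 in WT and 74 in CML, lay in the primary granule class defined below. The Kit level over all members is therefore not that of the other classes. Ly6a, encoding Sca1, was at 180 and 203 CPM in members, against 41.8 and 38.8. Itgam and Ly6g, surface markers that lineage depletion aims to remove, were at 498 and 421 CPM in WT members and 425 and 495 in CML members. The summed level of 10 stem cell markers was 77.3 CPM in WT and 52.1 in CML members, against 107 and 130 in the others.

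Members ran from cells that still carried primary granule transcripts to cells dominated by calprotectin and secondary granule transcripts. In both libraries the selection share spread over its whole range, with 78, 42, 63 and 59 WT cells and 161, 74, 103 and 131 CML cells at 1 to under 2%, 2 to under 5%, 5 to under 20% and at least 20%. The makeup of the selecting transcripts differed along it. At 1 to under 2%, S100a8 made up 58.6% of the 5 genes' UMIs in WT, Ngp 1.82% and Ltf 0 UMIs; at 20% or more S100a8 made up 31.1%, Ngp 14.1%, Camp 14.2% and Ltf 5.23%. So the low end of the definition held cells with calprotectin transcripts and few secondary granule ones.

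**Figure D1:**
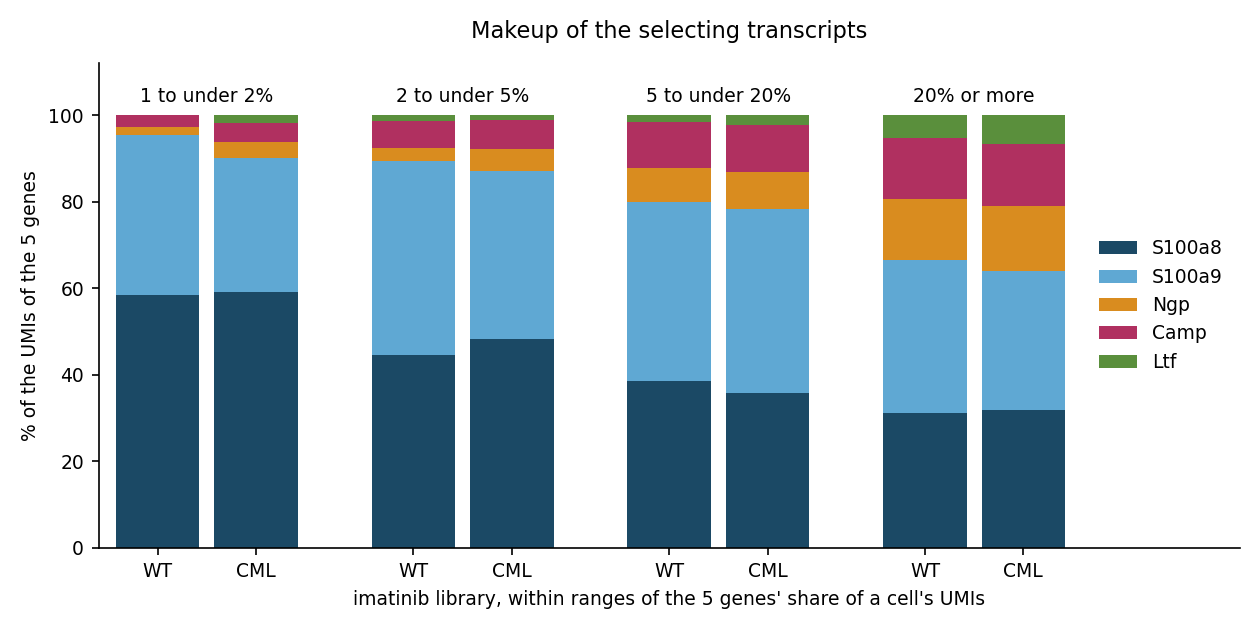
Stacked bars give the share of each gene, in percent, among the UMIs of S100a8, S100a9, Ngp, Camp and Ltf, for 4 ranges of the selection share in the WT and the CML imatinib library. S100a8 takes 58.6% of the lowest range and 31.1% of the highest in WT, while Ngp, Camp and Ltf widen.

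Primary granule enzymes showed the opposite gradient. Pooled over the cells of a range, Mpo, Elane, Prtn3 and Ctsg held 2.89%, 2.74%, 1.62% and 0.0909% of UMIs in WT and 2.74%, 2.92%, 1.54% and 0.0705% in CML, from the lowest range to the highest. To remove the part that the selection genes themselves take, levels along the ranges are given as CPM over the UMIs outside the 5 genes. On that scale Ctsg, cathepsin G, was at 2806 CPM in the lowest and 48.8 in the highest range in WT, and at 3409 and 86.4 in CML. Srgn, the serglycin core that holds granule proteases, was at 7092 and 342 CPM in WT and 7098 and 345.5 in CML. Ribosomal protein genes summed to 151684 CPM in the lowest and 47548 in the highest range in WT and to 162435 and 45622 in CML, and the median number of genes seen at 500 UMIs was 371 and 266 in WT, 329 and 249 in CML.

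Genes outside the selection moved with the gradient in both libraries. Between the highest and lowest range, 83 of 540 compared genes (15.4%) stood higher by 2-fold or more and 233 (43.1%) lower in WT, and 152 (22.6%) and 248 (36.9%) of 672 in CML. These counts cover all genes, so selection genes such as Ngp and Camp, on which the ranges were cut, are among the higher ones. The lowest range held more UMIs than the highest (198155 and 82518 in WT, 214242 and 156048 in CML). A lower gene thus passed the minimum at a lower level, and the split is read no further. Lcn2 was at 584, 1788, 6925 and 35494 CPM from the lowest to the highest range in WT, and at 322, 925, 11793 and 41035 in CML. Ifitm6, an interferon-induced membrane protein, was at 41.0 and 2651 CPM at the ends in WT and at 23.6 and 2323 in CML. Mmp9 did not follow the same order in both. It was at 20.5, 138, 1564 and 2863 CPM in WT but at 4.73, 102, 2102 and 1477 in CML. Retnlg likewise stood at 8692 and 10053 CPM in the upper ranges in WT and at 11221 and 3006 in CML, so the cells at the top of the gradient differed in makeup between the libraries. Over single cells the selection share had a Spearman correlation of -0.64 with the primary granule enzymes in WT (242 cells) and -0.67 in CML (469 cells), and of 0.80 and 0.83 with Lcn2. These are descriptions, since all come from the same UMIs of the same cells.

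The members were then divided by cuts chosen after the data were examined. A cell with at least 0.5% of its UMIs outside the 5 genes from Retnlg formed the Retnlg class. Of the rest, cells with at least 1% from the 4 primary granule enzymes formed the primary granule class, remaining cells with a selection share of at least 5% the secondary granule class, and what was left the remainder. These classes are ranges of a continuous measure and not cell types, and 49 WT and 137 CML members lay within 2-fold of the Retnlg or the enzyme cut. All levels within and between classes are CPM over the UMIs outside the 5 genes. Retnlg was unevenly spread, with 0 UMIs in 157 WT and 370 CML members and 0.25 to under 1% in 16 and 19.

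**Figure D2:**
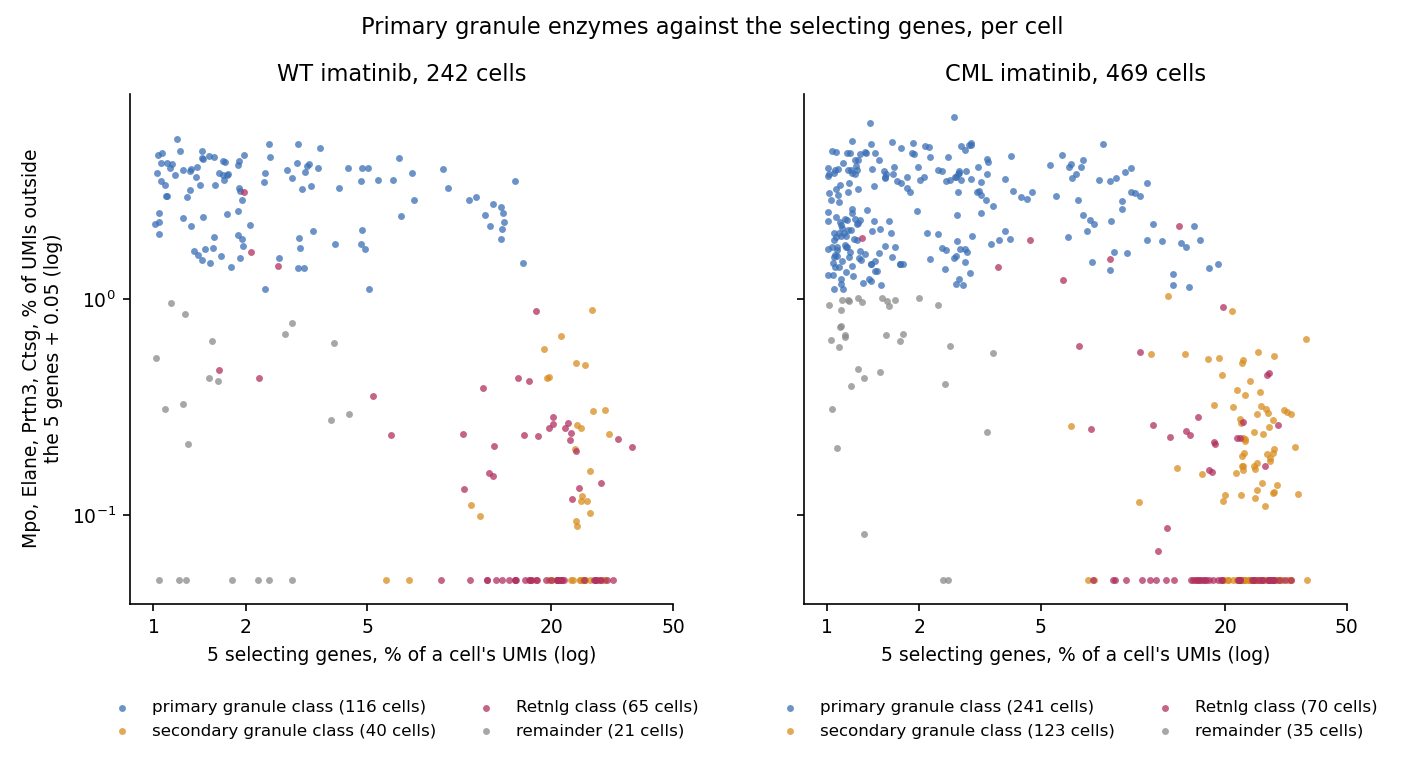
Each point is 1 member of the WT imatinib (left) or CML imatinib (right) library, with the selection share on the x axis and the share of the 4 primary granule enzymes in UMIs outside the 5 genes, plus 0.05, on the y axis, both in percent on log scales, coloured by class. Cells under 5% on the x axis are mostly primary granule class, and the cells at 20% or more carry few or no enzyme UMIs.

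The primary granule class held 116 WT and 241 CML cells, with a median selection share of 1.92% and 1.73%. Its cells had a median of 3.26% and 2.51% of UMIs outside the 5 genes from the 4 enzymes. S100a8 had a median of 1.1% and 0.998%, and Ngp, Camp, Ltf and Lcn2 medians of 0 to 0.0604%. Ngp was seen in 47.4% and 50.6% of its cells and Ltf in 9.48% and 19.5%. Gfi1, encoding a transcriptional repressor, was at 406.5 CPM in WT and 415.5 in CML in this class, against 167 and 143 in the secondary granule class.

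The secondary granule class held 40 WT and 123 CML cells, with a median selection share of 24.9% and 24.8%. In it Ngp stood at 47165 CPM in WT and 49220 in CML, Camp at 52437 and 49052, Ltf at 15985 and 20826, and Lcn2 at 30950 and 37446. Single cells gave Ngp a median of 4.84% and 4.96%, Ltf 1.49% and 1.94%, Lcn2 2.76% and 3.49%, and Retnlg 0% in both. Chil3 was at 14006 and 15550 CPM and Cybb at 5210 and 5579 in this class, against 1278 and 1333 (Chil3) and 654.5 and 651 (Cybb) in the primary granule class. Cebpe was at 500 and 556 CPM, against 220.5 and 147 in the primary granule class and 158 and 139 in the Retnlg class. Against the primary granule class, 38 of 685 compared genes (5.55%) were higher and 253 (36.9%) lower in WT, and 128 (10.9%) and 408 (34.9%) of 1170 in CML. The cuts used the enzymes and the selection genes, so these counts describe the classes only. In CML the minimum of 50 UMIs stood for 421 CPM in the secondary and 117 in the primary granule class. In WT 51 UMIs stood for 1063 CPM in the secondary and 50 for 172 in the primary granule class. Genes lower in the secondary granule class thus passed more easily, and the split is read no further.

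The Retnlg class held 65 WT and 70 CML cells, with a median of 730 and 724.5 UMIs, the shallowest but for the CML remainder. Its median selection share was 17.9% and 17.8%. Retnlg was at 27553 CPM in WT and 31294 in CML, Mmp8 at 7233 and 9384, Mmp9 at 5262 and 6179, and Cxcr2, the chemokine receptor of circulating neutrophils, at 710 and 832. The same genes stood at 104 and 278 (Retnlg), 125 and 371 (Mmp8), 875 and 758.5 (Mmp9) and 83.4 and 143 CPM (Cxcr2) in the secondary granule class. Ngp had a median of 1.45% and 1.30% of a cell's UMIs outside the 5 genes, Camp 0.430% and 0.416%, and Ltf 0.25% and 0.204%, all lower than in the secondary granule class. Fcnb, ficolin B of early precursors, was at 59.1 CPM in WT and at 0 UMIs in CML, against 2230 and 1761 in the secondary granule class.

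Response genes set the Retnlg class apart as well. Zfp36, which destabilizes cytokine mRNAs, was at 2148 CPM in WT and 2681 in CML, against 333.5 and 287 in the secondary granule class. Fos, an immediate early transcription factor, stood at 1636 and 1787 CPM against 292 and 295. S100a6, a relative of the calprotectin genes, was at 16418 and 15116 CPM against 1959 and 2351, and Fth1, the ferritin heavy chain, at 1656 and 2250 against 396 and 421. Against the secondary granule class, 33 of 169 compared genes (19.5%) were higher and 18 (10.7%) lower in WT, and 65 (16.8%) and 122 (31.6%) of 386 in CML. Of these, 23 were higher and 16 lower in both libraries. In CML 50 UMIs stood for 770 CPM in the Retnlg and 421 in the secondary granule class, so the split is read no further.

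**Figure D3:**
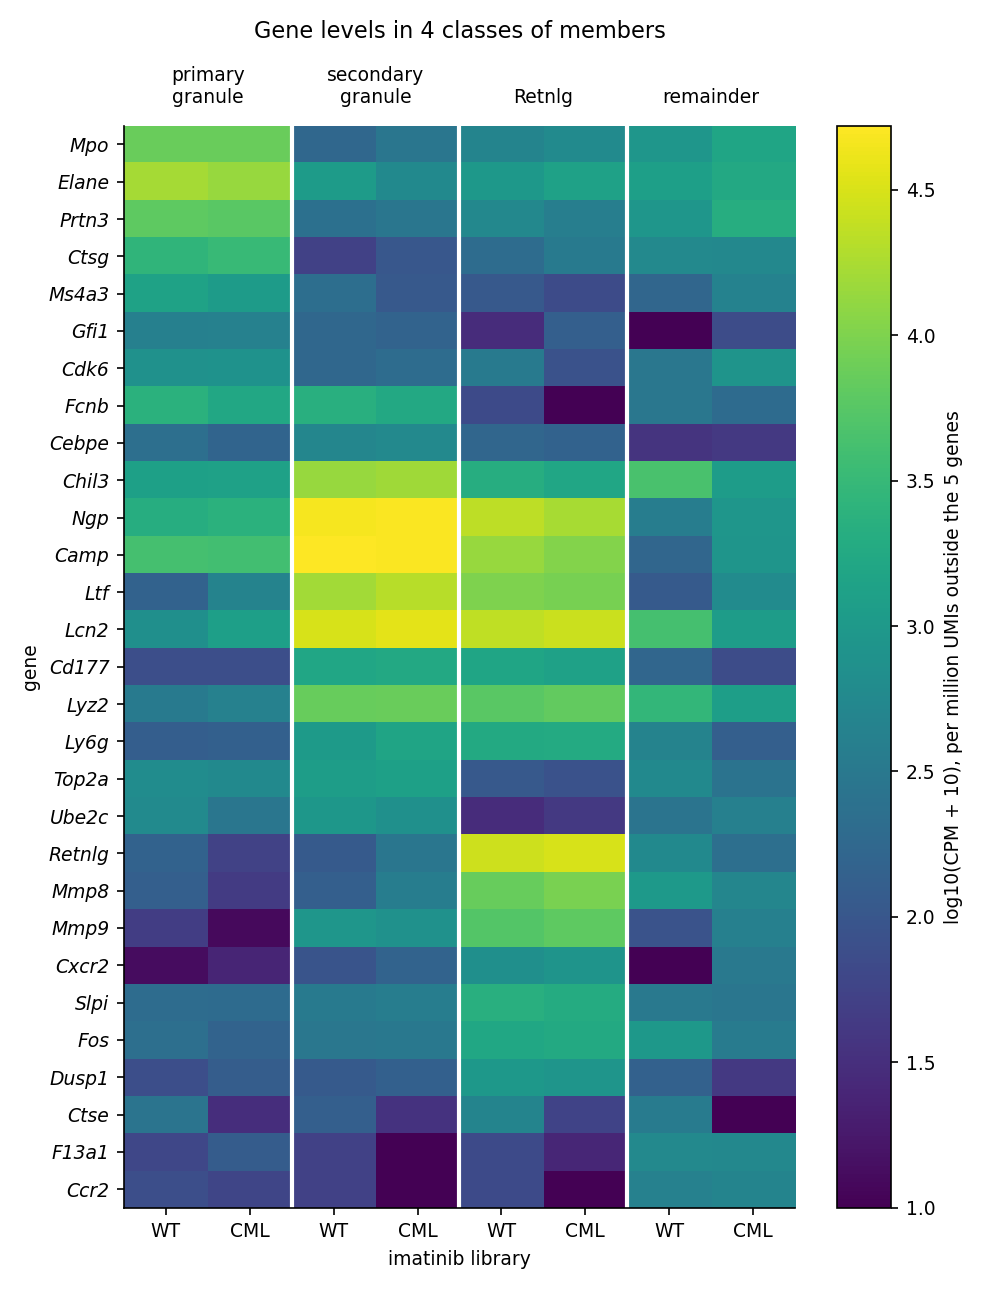
The colour of each tile is the level of 1 gene, as log10 of CPM plus 10 over the UMIs outside the 5 selecting genes, in 1 class of members (column groups) of the WT or CML imatinib library. Mpo to Gfi1 are brightest in the primary granule class, Chil3 to Lcn2 in the secondary granule class, and Retnlg, Mmp8, Mmp9 and Cxcr2 in the Retnlg class.

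The remainder, 21 WT and 35 CML cells, went partly against the label. Ngp, Camp and Ltf had a median of 0 in its cells, and the summed level of 10 monocyte and macrophage markers was 3376 CPM in WT and 2770 in CML, against 160 to 542 CPM in the other classes. F13a1, coagulation factor XIII A of monocytes, was at 550 and 529 CPM, Ccr2, the receptor that draws monocytes out of the marrow, at 419 and 467, and Fn1, fibronectin, at 680.5 and 436. A UMI of the list was seen in 76.2% of the WT and 51.4% of the CML remainder cells, against 13.8 to 47.4% in the other classes. Over all members the same list summed to 640 and 527.5 CPM, below the 766 and 589 of the other kept cells.

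Division transcripts were found in the first classes and largely not in the Retnlg class. At 500 UMIs a cell, a UMI from 20 G2 and M phase genes was seen in 70.7% of the WT primary granule class (exact binomial interval 61.5 to 78.8) and 61.0% in CML (54.5 to 67.2). The secondary granule class had 57.5% (40.9 to 73.0) and 65.9% (56.8 to 74.2), and the Retnlg class 18.5% (9.92 to 30.0) and 12.9% (6.05 to 23.0). Unthinned these shares were 86.2% and 79.7%, 67.5% and 75.6%, and 21.5% and 20%, in the same order of classes. The S phase list had 69.0% and 72.6% in the primary granule class, 47.5% and 39.8% in the secondary granule class, and 20% in both Retnlg classes. Top2a, the topoisomerase of dividing cells, was at 1167 CPM in WT and 1273 in CML in the secondary granule class, and at 98.6 and 77.0 in the Retnlg class. Over all members the G2 and M share at 500 UMIs was 52.5% in WT (46.0 to 58.9) and 55.7% in CML (51.0 to 60.2), intervals that overlap.

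The class shares of members in the 2 imatinib libraries were as follows, with intervals over cells of 1 library each that say nothing of the spread between animals. The secondary granule class made up 16.5% of WT members (12.1 to 21.8) and 26.2% of CML members (22.3 to 30.5), and the Retnlg class 26.9% (21.4 to 32.9) and 14.9% (11.8 to 18.5). The secondary granule share was higher in the CML library and the Retnlg share higher in the WT library. The primary granule class made up 47.9% (41.5 to 54.4) and 51.4% (46.8 to 56.0), and the remainder 8.68% and 7.46%. Out of all kept cells the secondary granule class was 0.955% in WT (0.683 to 1.30) and 2.38% in CML (1.98 to 2.83), the primary granule class 2.77% (2.29 to 3.31) and 4.66% (4.11 to 5.28), and the Retnlg class 1.55% (1.2 to 1.97) and 1.36% (1.06 to 1.71). The Retnlg class differed less between the libraries as a share of all kept cells, with overlapping counting intervals. Among cells of at least 1000 UMIs, where the intervals of both pairs overlap, the secondary granule class was 16% of WT (10.5 to 22.9) and 26.8% of CML members (21.4 to 32.8), and the Retnlg class 12% (7.27 to 18.3) and 9.20% (5.92 to 13.5). Depth per cell differed between the libraries and the sort can set these shares. The part of either was not tested.

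**Figure D4:**
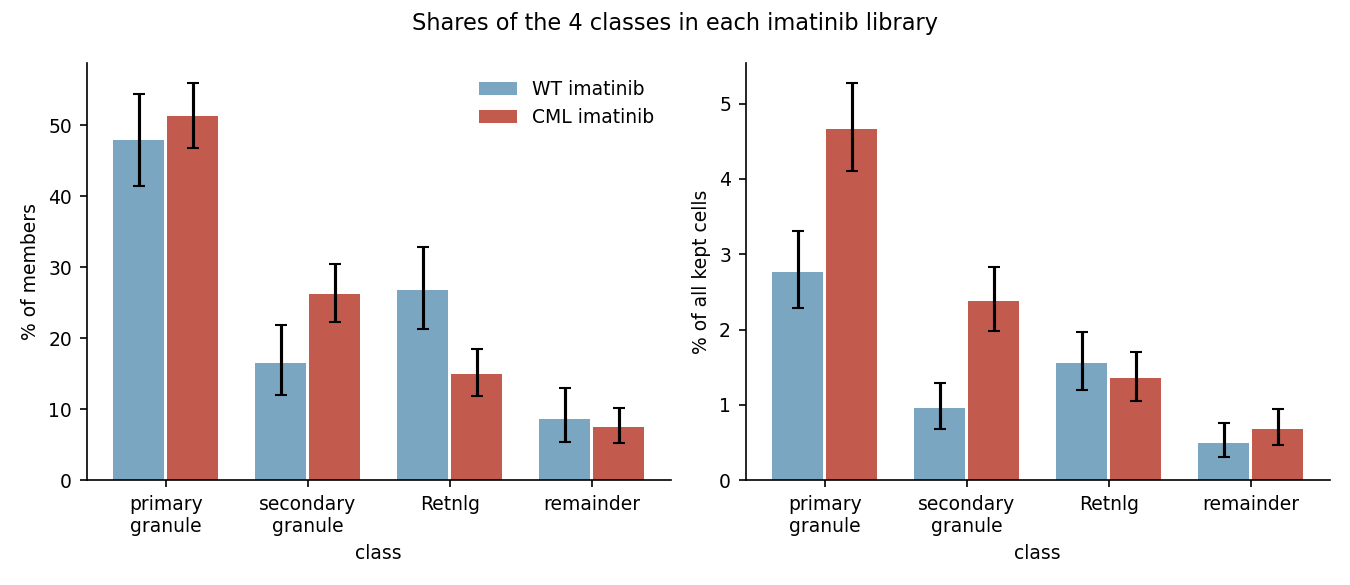
Bars give the share of each class in percent of members (left) and of all kept cells (right) in the WT and CML imatinib libraries, with exact binomial 95% intervals as error bars. The secondary granule bars stand at 16.5% and 26.2% of members and the Retnlg bars at 26.9% and 14.9%.

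The main comparison set all CML imatinib members against all WT imatinib members, over all their UMIs (710881 and 465568). Of 2187 compared genes, 42 (1.92%) were higher in CML by 2-fold or more and 19 (0.869%) lower, together 61 (2.79%), and the median log2 ratio was 0.04. The minimum of 50 UMIs stood for 70.3 CPM in CML and 107 CPM in WT, so a gene higher in CML passed at a lower level. With a minimum of 200 CPM, 3 genes were higher and 4 lower, so the split between higher and lower is read no further. With TMM scaling (trimmed mean of M values) 57 were higher and 13 lower, so that 81.4% of these genes were higher in place of 68.9%, with a median of 0.13. Genes seen in 5 to under 10% of members had a median of 1.54 UMIs per positive cell in CML and 1.32 in WT, against 1.09 and 1.08 if UMIs were spread by depth, so the counting intervals are too narrow. None of the 6 markers was among the 61 genes at least 2-fold apart. S100a8 had a log2 ratio of 0.14 (0.11 to 0.17), S100a9 0.10 (0.07 to 0.13), Camp 0.27 (0.22 to 0.32), Ngp 0.38 (0.32 to 0.43), Lcn2 0.54 (0.48 to 0.61) and Ltf 0.71 (0.61 to 0.80). Within the secondary granule class alone, per UMIs outside the 5 genes, the values were smaller: 0.13 for S100a8, -0.02 for S100a9, -0.10 for Camp, 0.06 for Ngp, 0.27 for Lcn2 and 0.38 for Ltf. In the primary granule class they were 0.85 for Lcn2, 1.72 for Ltf and -0.28 for S100a9. Within single ranges of the selection share, over all UMIs, some values had the other sign from those over all members. S100a9 had -0.41, -0.41, -0.07 and -0.12 from the lowest range to the highest, below 0 in each, against 0.10 over all members. S100a8 had -0.14, -0.08, -0.23 and 0.05, against 0.14, and Lcn2 -0.86, -0.94, 0.78 and 0.20, against 0.54. How members spread over the ranges enters the values over all members, and its part was not tested. A single CML cell of 9251 UMIs held 372 of the 3275 Ltf UMIs, and without the highest cell of each library Ltf had 0.62.

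The other kept cells of these libraries had larger log2 ratios for Ngp (2.53), Camp (2.40) and Ltf (3.01), at levels of 2.44 to 62.4 CPM that are far below those of members. They had 0.05 for S100a8 and 0.78 for S100a9. Of 3934 genes compared in them, 109 (2.77%) were higher in CML and 7 (0.178%) lower, together 2.95%, and in the primary granule cells among them 19 (0.514%) and 3 (0.0812%) of 3695, together 0.595%. Since cells past 1% count as members, the level in the rest is capped by the selection.

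No granule list held a gene that was 2-fold apart. Early neutrophil precursor genes had 6 of 6 compared members on the lower side in CML (median -0.33, against 0.04 over all compared genes), with Fcnb at 1314 CPM in CML and 1716 in WT, Ms4a3, a gene of granulocyte-monocyte progenitors, at 705 and 913, and Gstm1, a glutathione transferase, at 1622 and 2023. In the primary granule list 5 of 6 were on the lower side (median -0.18), with Elane at 8817 and 10587 CPM. The other secondary granule list had 8 of 9 on the higher side (median 0.23), with Chil3 at 3591 and 2833 CPM and Mmp8 at 962 and 960. The tertiary granule and late neutrophil list had 7 of 10 on the higher side (median 0.19), yet Retnlg was at 2940 and 3147 CPM. For the NADPH oxidase 5 of 6 were on the higher side (median 0.17), with Cybb at 1533 and 1390 CPM. The class shares differed between the libraries as well, and their part in these values was not tested.

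Ctse, encoding the aspartic protease cathepsin E, was the gene furthest apart. It had 15 UMIs in 10 of 469 CML members and 118 UMIs in 69 of 242 WT members, which is 21.1 against 253.5 CPM and 12-fold lower in CML (log2 ratio -3.59, -4.47 to -2.81). At 500 UMIs it was seen in 0.640% of CML and 9.5% of WT members. The difference held in each range of the selection share, with log2 ratios of -3.72, -5.02, -3.10 and -2.79 from the lowest to the highest. Non-member cells with primary granule enzymes were apart in the same way, at 9.155 CPM in CML imatinib (1.22% of cells with a UMI) and 252 in WT imatinib (31.9%). In the untreated libraries such cells had 143 CPM in CML (43.8%) and 191 in WT (60.6%). The CML untreated library also differed in sex-linked transcripts, given at the end. All other kept cells of CML imatinib had 191 CPM in 4.41% of cells, against the 2.13% of its members with a UMI.

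The remaining genes lower in CML members were modest in level and had wide intervals. Cpt1a, which brings fatty acids into mitochondria, was at 39.4 CPM in CML and 107 in WT (log2 ratio -1.45, -2.17 to -0.75). Crip1, a small LIM protein, was at 47.8 and 120 CPM (-1.33, -1.99 to -0.69), and Emilin2, a matrix glycoprotein, at 43.6 and 107 (-1.30, -2.00 to -0.63). Pgm1, phosphoglucomutase, Vma21, an assembly factor of the proton pump, Psmd6, a proteasome subunit, Cnot8, Mfsd1, Mospd3, Usp38 and Reep4 had log2 ratios of -1.26 to -1.11. In the other kept cells the log2 ratios of these 11 genes ran from -0.58 (Crip1) to 0.68 (Emilin2).

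Genes higher in CML members were led by Hbs1l, which rescues stalled ribosomes, at 143.5 CPM in CML and 30.1 in WT (log2 ratio 2.25, 1.44 to 3.18). Its 102 CML UMIs lay in 34 cells and its 14 WT UMIs in 8. Erdr1 was at 121 and 32.2 CPM (1.91, 1.11 to 2.81), with UMIs in 65 and 13 members, but among members with a selection share of at least 5% it had -0.29. In non-member primary granule cells Erdr1 had a log2 ratio of 1.75 between the same libraries, and Hbs1l one of 0.25. Prkca, protein kinase C alpha, was at 163 and 49.4 CPM (1.72, 1.07 to 2.44), with 20 of its 116 CML UMIs in 1 cell. Mir6240, Strn4, Tusc1, Slc25a37, Spc25, Supt16, Zmpste24 and Eri1 had log2 ratios from 1.13 to 1.45.

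**Figure D5:**
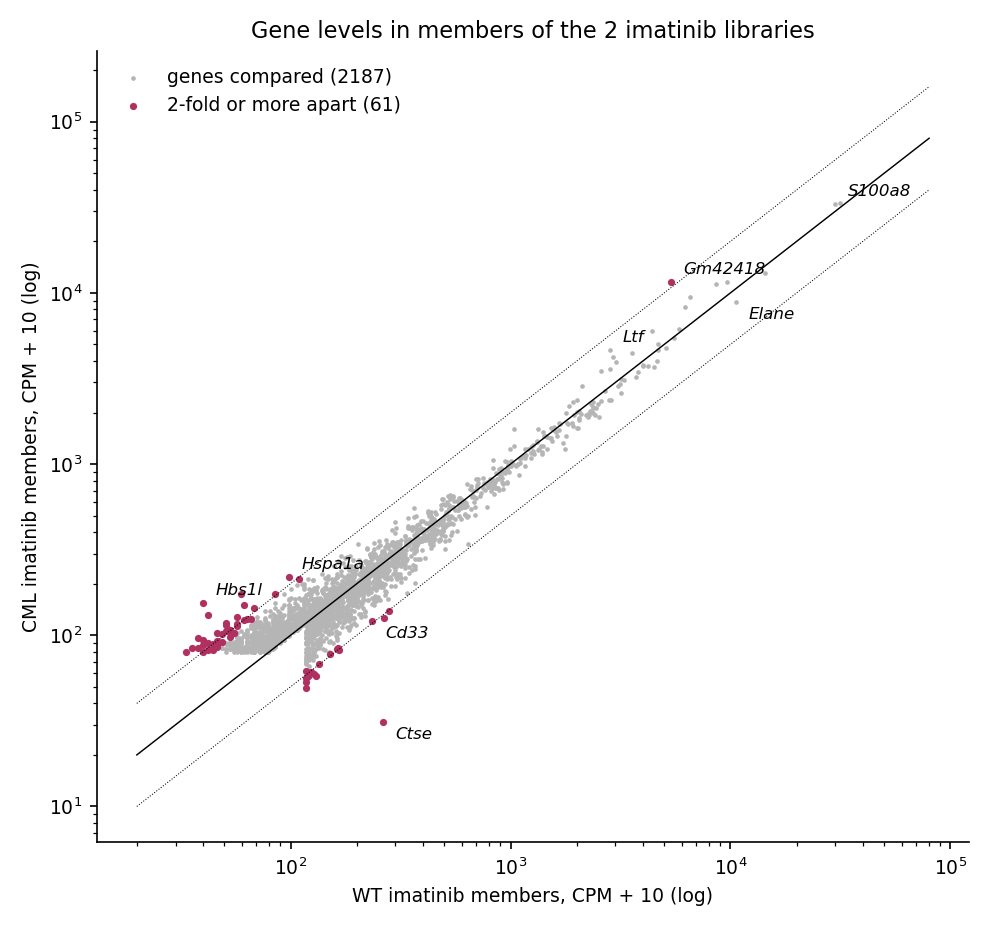
Each point is 1 of the 2187 genes compared, with its level in WT imatinib members on the x axis and in CML imatinib members on the y axis, as CPM plus 10 on log scales; the solid line marks equality, dotted lines 2-fold, and red points the 61 genes at least 2-fold apart. Ctse lies furthest below the line, and the granule genes lie close to it.

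Across all lists 3 genes passed 2-fold, all higher in CML, against 2.79% of all genes compared, and nothing particular to the lists is read from it. Hspa1a, the inducible heat shock protein 70, was at 208 CPM in CML and 88.1 in WT (log2 ratio 1.24, 0.73 to 1.78). Osm, oncostatin M, a cytokine listed under STAT5 targets, was at 84.4 and 30.1 CPM (1.49, 0.63 to 2.44), and Ier5, an immediate early gene, at 71.7 and 34.4 (1.06, 0.23 to 1.97). The heat shock list had 6 of 9 genes on the higher side (median 0.06), the immediate early list 7 of 10 (0.05) and the STAT5 list 3 of 3 (0.54), with Mcl1, which protects from cell death, at 266 and 183 CPM. Gm42418, a predicted gene within a ribosomal RNA repeat, singled out after its values were seen, was at 11577 and 5342 CPM (1.12, 1.05 to 1.18), and had a log2 ratio of 1.06 in the other kept cells.

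Of the kinases that imatinib inhibits, Kit alone was high enough to be compared. It was at 124 CPM in CML and 195.5 in WT members (log2 ratio -0.66, -1.10 to -0.22), while Abl1 (43 and 12 UMIs, 60.5 and 25.8 CPM) and Bcr (27 and 11 UMIs) were below the minimum of 50 UMIs. No gene of the cell cycle lists was 2-fold apart. The G2 and M phase list had 9 of 16 genes on the higher side (median 0.03), with Ube2c, the ubiquitin-conjugating enzyme of mitotic exit, at 311 and 492 CPM and Top2a at 574 and 571. The S phase list had 4 of 12 (median -0.07) and the glycolysis list 3 of 9 (median -0.05). Of 19 interferon response genes only Ifi47 was high enough to be compared, at 78.8 and 43.0 CPM, and 3 genes in CML and 7 in WT were at 0 UMIs.

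Transcripts of other cell types were low in the members of both libraries. Mast cell and basophil markers summed to 481 CPM in CML and 442.5 in WT members, against 2184 and 1601 in the other kept cells, with 0 of 10 in CML and 2 of 10 in WT at 0 UMIs. Hdc, which neutrophil precursors also express, gave 304 and 318 CPM of those sums. Erythroid markers summed to 56.3 and 21.5 CPM, with 4 and 9 of 12 at 0, against 4094 and 222.5 in the others. Eosinophil markers summed to 88.6 and 21.5 CPM, of which Prg2, the major basic protein, gave 63.3 and 4.30. T cell markers summed to 11.3 and 17.2 CPM (6 and 5 of 10 at 0), and B cell markers to 5.63 and 25.8 (5 and 3 of 8 at 0). Summed levels were 98.5 and 116 CPM for plasma cell, 59.1 and 25.8 for dendritic cell, 46.4 and 49.4 for stromal and endothelial, and 18.3 and 15 for megakaryocyte markers. Plasma cell markers in the other kept cells were lower in CML, at 59.6 CPM, and higher in WT, at 974. Lymphoid-primed markers summed to 103 CPM in CML and 165 in WT members, against 117 and 146 in the others. Leaving out the members with at least 0.5% of UMIs from another type's list gave 42 genes higher and 19 lower, all 42 and 19 of them shared with the full set.

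Within the classes the CML and WT cells differed in other genes. In the primary granule class 30 of 1408 compared genes (2.13%) were higher in CML and 13 (0.923%) lower. Ctse led the lower ones (21.0 against 258 CPM), followed by Chil1, a chitinase-like protein (63.0 against 265), with the mitotic genes Ube2c (282.5 against 599) and Birc5 (180 against 386) among them. Other division genes of this class went both ways. Ccnb2 was at 198 against 393 CPM and Top2a at 570 against 630, but Mki67 at 264 against 141 and Cdk1 at 310.5 against 303. Ccl6, a chemokine of myeloid cells, was at 170 against 17.2 CPM, Anxa1, annexin A1, at 920 against 289, Ltf at 453 against 138, and Pim1, a STAT5-responsive kinase, at 142 against 68.9.

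In the secondary granule class 19 of 278 compared genes (6.83%) were higher in CML and 3 (1.08%) lower. There 50 UMIs stood for 421 CPM in CML, while 51 UMIs stood for 1063 CPM in WT. A gene higher in CML thus passed at a lower level, and the split is read no further. Mcl1 was at 522.5 CPM in CML and 125 in WT (62 and 6 UMIs, log2 ratio 2.06, 0.86 to 3.56). Cbl, a ubiquitin ligase acting on tyrosine kinase receptors, was at 539 and 146 CPM (64 and 7 UMIs), and Plk1, a mitotic kinase, at 430 and 167 (51 and 8 UMIs). Lower were Plac8, at 649 and 1376 CPM, and the ribosomal protein genes Rps16 and Rpl15. The WT side of these comparisons rests on 40 cells.

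In the Retnlg class 13 of 204 compared genes (6.37%) were higher in CML and 10 (4.90%) lower. Cebpb, the C/EBP factor of emergency granulopoiesis, was at 1464 CPM in CML and 355 in WT (95 and 18 UMIs, log2 ratio 2.04, 1.31 to 2.86), and Junb, an AP-1 subunit, at 924.5 and 315. Cytip, which restrains integrin adhesion, was at 1140 and 236.5 CPM, and Rab32 at 786 and 98.6 (51 and 5 UMIs). Ptma, prothymosin alpha of growing cells, was at 231 and 1123 CPM, Ifitm2 at 385 and 1163, and 6 ribosomal protein genes were also lower. Ribosomal protein genes summed to 31602 CPM in CML and 53944 in WT. The marker genes of the class were closer, with log2 ratios of 0.18 for Retnlg, 0.38 for Mmp8, 0.23 for Mmp9, -0.42 for Ngp and -0.40 for Camp.

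In the remainder 10 of 107 compared genes (9.35%) were higher in CML and 8 (7.48%) lower. Lcn2 was at 1120 CPM in CML and 4188 in WT (36 and 160 UMIs, log2 ratio -1.90), and Chil3 at 1120 and 4502.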

How the data were processed

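Single-cell libraries (inDrop) of 4 groups, 1 each, were read from tables of genes by cells. The values are a signal that the authors normalized and deposited, with about the same total in each cell. Partek 8.0, Bowtie 1.1.1 and the mouse genome mm10 appear in the list of tools and builds, per the submitters' processing notes, without their roles. Dividing each column by its smallest nonzero value gave whole UMIs (within 0.02) for every value. UMIs were summed over cells and compared as log2 ratios of CPM with exact conditional binomial 95% intervals. A gene was compared if its higher side reached 50 CPM and 50 UMIs, and counted from 2-fold. A count of 0 was set to 3. Thinning to 500 UMIs used a fixed seed, and the code was tested on simulated data. No doublet caller was run. Python 3.11.15, numpy 2.4.6, scipy 1.17.1, pandas 2.3.3, matplotlib 3.10.9, R 4.3.3 and edgeR 4.0.16 (TMM factors only) were used.

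The members and gene lists were chosen with earlier results of these data known. Named genes were the 12 highest and 12 lowest log2 ratios between the libraries with at least 100 CPM, without predicted, ribosomal protein and mitochondrially encoded genes, the 12 highest and 8 lowest against other cells, up to 4 genes of each list by level, every list gene past 2-fold, and the 6 markers. Classes, their cuts and the genes named within or between them were chosen after the data were examined, and so was Gm42418.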

Additional observations from a re-analysis of the deposited data

How the results depend on the processing

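No replicate was left out, as each group has 1 library. No paired analysis was possible because each group is 1 library. Of the alternatives to the counts and shares compared here, 71 gave values near the main ones and 45 did not. For single genes, 452 were near, 133 had moved and, among genes at least 2-fold apart in the main comparison, 10 had the other sign. Some that had moved, all of the 6 markers, also changed sign. In each case the cause was not tested.

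The share of kept cells that are members was 3.92% in WT and 5.96% in CML with a selection share of at least 2%, and 2.91% and 4.53% with at least 5%. In CML it was 8.12% from 1000 UMIs up and 10.6% after thinning to 500 UMIs. For CML against WT members (42 genes higher, 19 lower), thinning gave 20 and 9, of which 5 and 1 were among the main ones. The mean of single-cell CPM gave 83 and 34 (27 and 11 shared), and a minimum of 200 CPM gave 3 and 4, all shared. Taken alone, the ranges from 1, 2, 5 and 20% up gave 11, 23, 18 and 17 higher genes (3, 0, 1 and 3 shared) and 20, 3, 4 and 7 lower genes (0, 0 and 1 shared in the upper 3). A selection share of at least 2% gave 12 lower genes and at least 5% gave 5 (4 and 1 shared). Giving the 4 classes equal weight, chosen after seeing the data, gave 124 and 53 (32 and 17 shared). The share of these genes that were higher turned to 35.5% in the lowest range alone and 42.9% with 200 CPM, and was 81.8% from 2% up (54 and 12 genes), 87.2% from 5% up (34 and 5) and 78.3% without the members above the 95th percentile of UMIs (47 and 13).

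Among genes at least 2-fold apart, log2 ratios with the other sign were -0.29 (at least 5%) and -0.022 (5 to under 20% alone) for Erdr1, -1.50 (20% or more alone) for Slc25a37, -0.80 (2 to under 5% alone) for Supt16, -0.38 (1 to under 2% alone) and -0.12 (5 to under 20% alone) for Zmpste24, -0.51 (5 to under 20% alone) for Eri1, 0.82 (20% or more alone) for Cnot8, 0.74 (2 to under 5% alone) for Reep4 and -0.43 (20% or more alone) for Ier5. Of the markers, Lcn2 had -0.86 and -0.94 in the 2 lower ranges alone, Ltf -0.30 at 2 to under 5%, and Ngp -0.06 with equal class weights. Camp reached -0.14 (equal class weights), S100a8 -0.23 (5 to under 20% alone) and S100a9 -0.41 (each of the 2 lower ranges alone).

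Against other kept cells, 63 genes were higher (main 151) and 284 lower (main 164) in both libraries after thinning, 103 were lower when scaled without the 5 genes and 902 with at least 5%. Against primary granule cells the values were 61 higher (main 135) and 237 lower (main 113), then 73 and 881. Between the ends of the selection share, 47 genes were higher in both libraries from 1000 UMIs up (main 74). The share of members with a G2 or M phase UMI was 34.7% in WT and 37.3% in CML when 2 UMIs were asked for, 76.0% and 77.6% at 1000 UMIs a cell, and 40.2% and 49.2% with at least 5%.

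Class alternatives were chosen after seeing the data. From 1000 UMIs up the Retnlg class was 12% of WT and 9.20% of CML members and the primary granule class 65.3% and 60.8%. An enzyme cut of 2% put 37.2% and 32.0% in the primary granule class, and a cut of 0.5% put 57.8% of CML members there. The part of depth in the class shares was not tested.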

Other observations

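Xist, which is expressed in cells of female animals, was at 0 UMIs in WT members and at 5 UMIs in 5 CML members (7.03 CPM). The other kept cells of CML imatinib held 929 Xist UMIs in 140 cells (105 CPM), and those of WT imatinib 26 UMIs in 22 cells. Over all kept cells, CML untreated held Xist at 2375 CPM, in 2866 of 3032 cells, and the Y-linked Ddx3y at 1.5 CPM. Xist and Ddx3y were at 1.52 and 43.6 CPM in WT untreated, 3.15 and 29.35 in WT imatinib, and 97.7 and 45.1 in CML imatinib. Between the CML libraries, treatment cannot be told apart from this difference.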
